A study of Homo sapiens with 6 samples.

Results

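LRRK2 and LRRK1 are 2 of the 52088 genes in a table of read counts from K562 cells, a human erythroleukaemia line that grows in suspension. Their rows were taken by gene symbol. LRRK2 was selected on its count in these libraries, as one of the largest increases in cells lacking the PBX3_Cl element, and LRRK1, its closest relative, was taken with it. The study deleted ultra-conserved elements (UCEs), a class of strongly conserved DNA outside coding exons, with paired CRISPR guides and asked how gene expression changed. The groups were 2 libraries of K562 cells with UCE PAX6_Ta deleted (genotype label PAX6_Tarzan Knockout, here PAX6_Ta KO), 2 with UCE PBX3_Cl deleted (PBX3_Claudia Knockout, here PBX3_Cl KO) and 2 of Control cells (genotype WT). The knockout cells were transfected with plasmids carrying Cas9 and a guide pair, selected with puromycin and grown from picked single clones. The Control label does not say that these cells went through any of this, so loss of an element cannot be told apart from editing, selection or the choice of a clone. The labels do not call the replicates separate cultures, so a p-value here may rest on technical spread alone. The libraries held 45912044 to 60908470 counts, and 20746 genes had enough counts to be tested. Control replicate 1 stood apart from Control replicate 2 in megakaryocyte genes (PPBP had 1381 counts against 69).

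LRRK2 and LRRK1 encode large proteins of the ROCO family, which join a GTPase domain (Roc) and its COR partner to a serine/threonine protein kinase, with leucine-rich repeats in front. LRRK2 phosphorylates a set of Rab GTPases, the switches of membrane traffic, among them RAB8A, RAB10 and RAB12, and mutations that raise its kinase activity cause inherited Parkinson disease. LRRK1 acts mainly on RAB7A, a Rab of late endosomes, and its loss gives a disease of dense bone through poor resorption by osteoclasts. LRRK2 is best known from kidney, lung, monocytes, neutrophils and B cells.

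LRRK2 (ENSG00000188906) lies on the forward strand of chromosome 12 from base 40590546 to base 40763087 of GRCh37, on the long arm, and its annotated exons cover 17.1 kb. LRRK1 (ENSG00000154237) lies on the forward strand of chromosome 15 from base 101459532 to base 101618462, with 17.5 kb of exon. The deleted elements are elsewhere, on chromosome 11 (PAX6_Ta, 434 bp) and chromosome 9 (PBX3_Cl, 222 bp). The 4 guides that made the deletions are printed because they were searched for near both genes, with the NGG motif next to the guide in capitals.
PAX6_Ta guide from the U6 promoter, chr11:31809917-31809939, reverse strand: gctttctgtgcggttgtggaTGG
PAX6_Ta guide from the H1 promoter, chr11:31811316-31811338, forward strand: caagtccattccttccccagTGG
PBX3_Cl guide from the U6 promoter, chr9:128456987-128457009, forward strand: ctcagtactgcaaagactgtGGG
PBX3_Cl guide from the H1 promoter, chr9:128457970-128457992, reverse strand: gcttgtacagttaagcatgaTGG
The cuts lie 1410 bp apart for PAX6_Ta and 972 bp apart for PBX3_Cl. Both strands of LRRK2 with 100 kb on either side (373 kb) and of LRRK1 with the same flanks (359 kb) were searched for the 4 guides. None of the 4 had a site next to an NGG with 4 or fewer mismatches near either gene, and the best sites had 5 to 7. Sites elsewhere in the genome were not searched. Counts per gene do not check whether the elements were lost.

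Upstream of both genes the sequence was rich in G and C. The RefSeq start of LRRK2 lies inside the annotated gene, far past its first base, and that of LRRK1 close to its first base. From 250 to 31 bases before the RefSeq start (table build GRCh38.p14, placed here on GRCh37), LRRK2 had 73.6% GC with 21 CpG and LRRK1 had 74.1% GC with 31 CpG, more GC than 87.1% and 87.8% of 35116 promoters over the same bases. The 30 bases holding the GC boxes (GGGCGG on either strand, in capitals) are shown because no other motif searched was found in both promoters.
LRRK2, chr12:40618737-40618766, forward strand: gagggcaacgcgGGGCGGggagctgcctcc
LRRK1, chr15:101459488-101459517, forward strand: ttcgcgCCGCCCtccCCGCCCGCCCgcctc
LRRK2 thus had 1 GC box and LRRK1 had 3, of which the 2 on the right overlap, while 38.9% of all promoters held at least 1. The letters CCGGAA, an ETS core, occurred 1 time in LRRK1, 0 times in LRRK2 and in 11.8% of promoters. Neither window held a TATA box (TATAAA, in 8.08% of promoters), a CCAAT box (CCAAT, 29.8%), a GATA site (AGATAA, 8.12%), an E-box (CACGTG, 5.4%), an AP-1 site (TGACTCA, 3.77%) or a CRE (TGACGTCA, 1.27%) on either strand.

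The members differed in which line they were highest in. LRRK2 was counted 2 and 0 times in PAX6_Ta KO, 335 and 248 times in PBX3_Cl KO, and 0 and 0 times in Control. Only the PBX3_Cl KO libraries were above the floor of 3 counts that a library at 0 allows, and LRRK2 was selected on these counts. LRRK1 was counted 485 and 625 times in PAX6_Ta KO, 20 and 15 times in PBX3_Cl KO, and 8 and 10 times in Control. Here the PAX6_Ta KO libraries held the most counts, and those of PBX3_Cl KO were next. The 2 genes therefore had most of their counts in different knockouts, and in Control cells both were at or near 0.

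In CPM, which is the count of a gene scaled to a common library size with TMM factors, LRRK2 averaged 0.0208 ± 0.0294 CPM in PAX6_Ta KO, 6.51 ± 1.54 CPM in PBX3_Cl KO and 0 CPM in Control (SD, n = 2 each, as for all means here), where a count of 0 in a library allows up to 0.0594 CPM. LRRK1 averaged 11 ± 1.25 CPM in PAX6_Ta KO, 0.391 ± 0.0892 CPM in PBX3_Cl KO and 0.166 ± 0.0458 CPM in Control. Per kb of annotated exon, the level of LRRK1 in PAX6_Ta KO was 0.628 ± 0.0717 CPM per kb and that of LRRK2 in PBX3_Cl KO was 0.38 ± 0.0903 CPM per kb. Each gene in the line where it was highest was thus within a factor of 2 of the other on this scale. Fewer cells that make a transcript and less transcript in each cell cannot be told apart in RNA from bulk cultures.

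In PAX6_Ta KO, LRRK1 rose by a log2 fold change of 6.05 (SE 0.41) over Control, a 66.1-fold difference with an adjusted p of 2.3e-06 by edgeR's quasi-likelihood test with Benjamini-Hochberg adjustment over all tested genes. By this test 7.21% of all tested genes were called higher and 4.21% were called lower in PAX6_Ta KO, and 147 genes rose more. The call on LRRK1 held under every alternative run, with log2 fold changes of 5.77 to 6.33. LRRK2 was not called in the same comparison (adjusted p = 0.366 by edgeR), and with 2 counts against 0 no fold can be given. It entered the test at all only because both PBX3_Cl KO libraries passed the filter on low counts, whereas LRRK1 passed in 5 of the 6 libraries.

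In PBX3_Cl KO, the contrast on which LRRK2 was selected, its values are a description and carry no p. LRRK2 was at least 240-fold higher than in Control, taking 3 counts over the Control group as the floor, or at least 110-fold without Control replicate 1 and at least 130-fold without Control replicate 2. Only 1 gene had a larger fitted increase. LRRK1 had 35 counts over PBX3_Cl KO and 18 over Control, a log2 fold change of 1.24 (SE 0.44), also given as a description. The test called 6.28% of genes higher and 2.69% lower in PBX3_Cl KO. Both comparisons use the same Control libraries.

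Between the knockouts, LRRK2 was 326-fold lower in PAX6_Ta KO, with 2 counts against 583 in PBX3_Cl KO (exact 95% interval 90.0 to 2700, for counting error only). The 583 counts are those on which LRRK2 was selected, so the ratio and its interval are a description and no support for a difference. Without PAX6_Ta KO replicate 1, which held both counts, it was at least 114-fold lower, and without PAX6_Ta KO replicate 2 it was 156-fold lower. In PAX6_Ta KO, LRRK1 stood 28.0-fold above PBX3_Cl KO, with a log2 difference of 4.81 (SE 0.38). Here 5.26% of genes were called higher and 6.71% lower in PAX6_Ta KO. With the replicate number as a block, the number of genes called went up in each comparison. It was 3548 in PAX6_Ta KO against Control (2370 without the block) and 2798 in PBX3_Cl KO against Control (1860 without it). Between the knockouts it was 3877 (2483 without it).

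LRRK2 was 1 of 331 tested genes with 3 or fewer counts over the Control libraries. Such genes passed the filter on low counts only through knockout libraries, so a higher level in a knockout was fixed in advance. Of these 331, 25 had at least 100 counts in each PAX6_Ta KO library and 9 in each PBX3_Cl KO library. The 9, named after their values were seen, were LRRK2, KIF1A (a kinesin of synaptic vesicle precursors), COBL (an actin nucleator), SPRR2D (a protein of cornified skin), ZNF804A, ESR2 (oestrogen receptor beta), PGAP4, the pseudogene SNX18P14 and CD1D (which presents lipids to T cells). LRRK1, with 18 counts over Control, fell outside the limit of 3.

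The genes whose levels ran most like LRRK2 were found by Pearson's r of log2 CPM over the 6 libraries, which is a description, since the 2 libraries of a group come from the same cells. The closest were CYP4F29P and CERS2, which makes ceramides with very long chains, QRFPR, a neuropeptide receptor, TRIM4 and CYP4F32P, with r from 0.9958 to 0.9961, and 35 genes had an r of 0.99 or more. QRFPR followed the on and off pattern of LRRK2, with 1 and 1 counts in PAX6_Ta KO, 106 and 87 in PBX3_Cl KO, and 0 and 0 in Control. CERS2 shared the shape but not the range, with means of 127 CPM in PAX6_Ta KO, 189 CPM in PBX3_Cl KO and 120 CPM in Control. CYP4F29P and CYP4F32P are pseudogenes of a multigene family, and their counts are uncertain for that reason.

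The levels of ENAH, TRERF1, SGCZ, JAG1 and ANKRD30BP2 ran most like LRRK1, with r from 0.9968 to 0.9990, and 23 genes had an r of 0.99 or more. ENAH, which extends actin filaments at the leading edge of cells, had 5355 and 5454 counts in PAX6_Ta KO, 35 and 28 in PBX3_Cl KO, and 7 and 12 in Control. It kept the order of groups seen for LRRK1. JAG1, a ligand of Notch receptors, had a smaller range, with 114 and 130 counts in PAX6_Ta KO, 37 and 29 in PBX3_Cl KO, and 30 and 30 in Control.

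Several annotated genes overlap the members, and no source at hand gives the strand setting of the authors' counting, so reads of overlapping genes may have been shared. LRRK2-DT, a long non-coding RNA on the reverse strand that shares 28172 bp of span with LRRK2, had 2 counts in PBX3_Cl KO replicate 1 and 0 in every other library. At LRRK1, ALDH1A3-AS1 starts inside the gene on the reverse strand, overlaps its first 65 bp and runs the other way. ALDH1A3-AS1 had 39 and 49 counts in PAX6_Ta KO, 1 and 1 in PBX3_Cl KO, and 0 and 1 in Control. It was thus high in the same libraries as LRRK1, 96.6-fold higher in PAX6_Ta KO than in Control (exact 95% interval 16.9 to 3860). It passed the filter on low counts only through the PAX6_Ta KO libraries. A higher level there was fixed in advance, so the ratio is a description and no support for a difference. ALDH1A3 itself, a retinaldehyde dehydrogenase whose end is 2.7 kb upstream of LRRK1, had 2 and 3 counts in PAX6_Ta KO, 0 and 0 in PBX3_Cl KO, and 0 and 0 in Control, too few to be tested. ENSG00000259755, another non-coding gene on the reverse strand, shares 27526 bp of span with LRRK1 and had 13 and 39 counts in PAX6_Ta KO, 25 and 51 in PBX3_Cl KO, and 35 and 41 in Control, with no call.

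The tested genes next to LRRK2 were highest in the same libraries as LRRK2. Both were also called lower than Control in PAX6_Ta KO, where LRRK2 was not called. With 0 counts in Control, LRRK2 could not have shown a fall. MUC19, a gel-forming mucin gene 24.1 kb downstream on the same strand, had 1 and 2 counts in PAX6_Ta KO, 393 and 423 in PBX3_Cl KO, and 12 and 20 in Control. It passed the filter on low counts only with the PBX3_Cl KO libraries, so its rise there is a description and carries no p. The rise was a log2 fold change of 4.94 (SE 0.42). In PAX6_Ta KO it was 9.72-fold lower than in Control (exact 95% interval 3.04 to 49.6, adjusted p = 0.00697 by edgeR). SLC2A13, a myo-inositol transporter 90.7 kb upstream on the other strand, had 129 and 146 counts in PAX6_Ta KO, 1043 and 812 in PBX3_Cl KO, and 341 and 390 in Control. In PAX6_Ta KO it fell by 1.29 on the log2 scale, at an adjusted p of 0.00697, and in PBX3_Cl KO it rose by 1.63 (SE 0.26, adjusted p = 0.0016 by edgeR). On either side of LRRK2, the nearest tested gene was therefore high where LRRK2 was high and lower in PAX6_Ta KO than in Control.

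Further upstream of LRRK2 the pattern was split between the knockouts. C12orf40, at 288.4 kb, had 3 and 6 counts in PAX6_Ta KO, 231 and 155 in PBX3_Cl KO, and 153 and 173 in Control. It fell by 5.03 on the log2 scale in PAX6_Ta KO (adjusted p = 3.4e-05 by edgeR) and was not called in PBX3_Cl KO (log2 fold change 0.53, adjusted p = 0.498). ABCD2, a peroxisomal transporter of fatty acids at 576.9 kb, had 0 and 0 counts in PAX6_Ta KO, 12 and 3 in PBX3_Cl KO, and 21 and 22 in Control, at least 13.2-fold lower in PAX6_Ta KO than in Control (adjusted p = 0.00508 by edgeR). KIF21A, a kinesin at 753.4 kb, had 3978 and 4118 counts in PAX6_Ta KO, 6504 and 5412 in PBX3_Cl KO, and 2852 and 2580 in Control. It rose by 1.43 (SE 0.20, adjusted p = 4.9e-04 by edgeR) in PBX3_Cl KO and by 0.71 (adjusted p = 0.0328) in PAX6_Ta KO, the second call being lost without any one of both Control and both PAX6_Ta KO replicates, at adjusted p from 0.131 to 0.251.

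**Figure D1:**
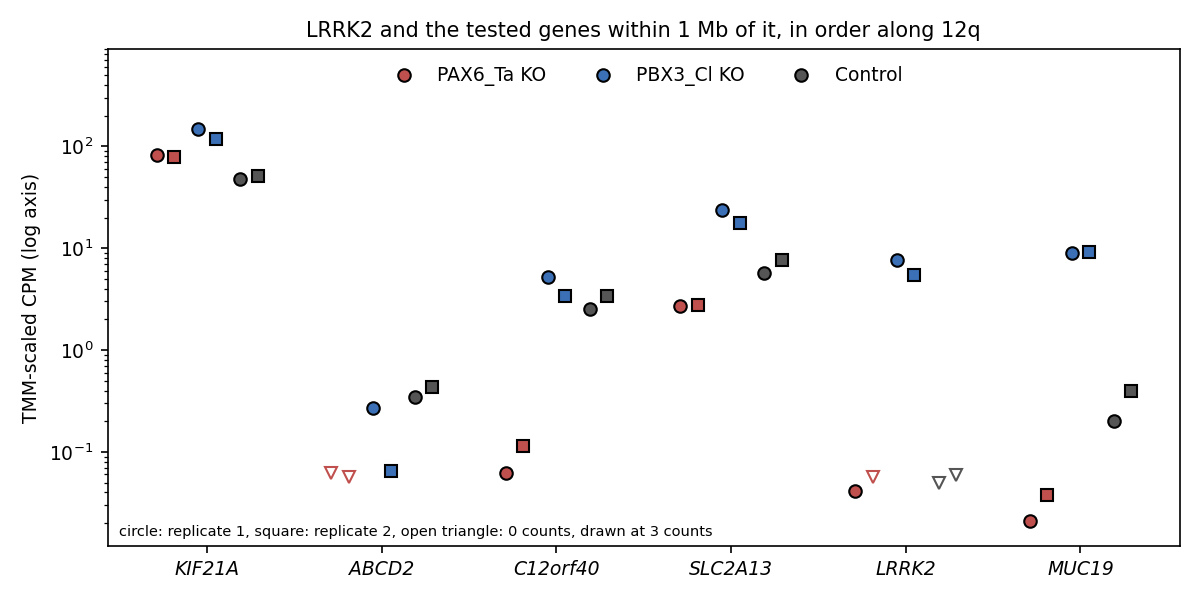
LRRK2 and the 5 tested genes within 1 Mb of it, in their order along the chromosome, in TMM-scaled CPM per library on a log axis. Open triangles are libraries with 0 counts, drawn at 3 counts. LRRK2, MUC19, SLC2A13 and KIF21A are highest in PBX3_Cl KO, and C12orf40, ABCD2, SLC2A13 and MUC19 are lowest in PAX6_Ta KO.

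Counted over a window of 2 Mb on either side of LRRK2, 43 genes were annotated and 12 were tested. Of the 12, 2 were higher and 4 lower in PAX6_Ta KO than in Control, and 3 were higher and 0 lower in PBX3_Cl KO (edgeR, the same 3 and 0 with the replicate block). Between the knockouts, 1 was higher and 5 were lower in PAX6_Ta KO, beside 5.26% higher and 6.71% lower of all tested genes. MUC19, among the lower, passed the filter on low counts only with the PBX3_Cl KO libraries. All 5 tested genes within 1 Mb were called lower in PAX6_Ta KO than in PBX3_Cl KO, although the calls on KIF21A and ABCD2 were each lost when 1 of 3 libraries was left out (PAX6_Ta KO replicate 1, PAX6_Ta KO replicate 2 or PBX3_Cl KO replicate 1), at adjusted p from 0.0845 to 0.244 and from 0.0964 to 0.135. CPNE8, at 1289.3 kb, was the other gene called higher in PAX6_Ta KO (log2 fold change 1.32, SE 0.27, adjusted p = 0.00646). The medians over the 12 were -0.02 in PAX6_Ta KO and 0.12 in PBX3_Cl KO, beside -0.02 and -0.01 over all tested genes. Outside the window, the rest of 12q had 45 higher and 26 lower of 776 tested genes in PAX6_Ta KO, and 41 higher and 21 lower in PBX3_Cl KO. There, 30 were higher and 45 lower in PAX6_Ta KO than in PBX3_Cl KO.

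Around LRRK1, the nearest tested genes other than ALDH1A3-AS1 were not called. Of 37 tested genes within 2 Mb, 4 were higher and 0 lower in PAX6_Ta KO, and 3 were higher and 1 lower in PBX3_Cl KO, against 50 higher and 16 lower, and 36 higher and 10 lower, of 681 on the rest of 15q. Without Control replicate 1 or Control replicate 2, 1 was higher and 1 lower in PBX3_Cl KO. CHSY1, a chondroitin synthase 97.5 kb downstream, had 2694 and 2652 counts in PAX6_Ta KO, 2488 and 2142 in PBX3_Cl KO, and 3441 and 2576 in Control. No call was made on it (adjusted p = 0.97 in PAX6_Ta KO and 0.917 in PBX3_Cl KO by edgeR). Upstream, the 5 tested genes nearest to LRRK1, at 267.6 to 369.2 kb, were not called either, among them ASB7 and LINS1. PCSK6, a proprotein convertase at 211.5 kb, rose by 0.78 (SE 0.20, adjusted p = 0.0248 by edgeR) in PAX6_Ta KO, a call lost on leaving out either Control library or PAX6_Ta KO replicate 1, at adjusted p from 0.0565 to 0.339. The other genes called against Control in the window besides ALDH1A3-AS1 were over 1 Mb away. SYNM, an intermediate filament gene, had 31 and 48 counts in PAX6_Ta KO, 111 and 124 in PBX3_Cl KO, and 6 and 0 in Control. Its log2 fold changes were 3.81 in PAX6_Ta KO and 5.55 in PBX3_Cl KO. It passed the filter on low counts only through the knockout libraries, so a rise was fixed in advance. PGPEP1L fell by 5.53 on the log2 scale in PBX3_Cl KO (adjusted p = 4.1e-05).

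The other members of the ROCO family did not follow either gene. MFHAS1 had 67.3 ± 6.75 CPM in PAX6_Ta KO, 87.8 ± 2.58 CPM in PBX3_Cl KO and 77.1 ± 9.31 CPM in Control, and DAPK1, a kinase of cell death, had 70.0 ± 2.67, 82.3 ± 2.16 and 64.3 ± 0.637 CPM in the same order. Neither was called against Control, at adjusted p from 0.31 to 0.786 by edgeR. K562 cells thus had counts of these relatives in every library, while LRRK2 was above 3 counts only in PBX3_Cl KO and LRRK1 above 20 only in PAX6_Ta KO.

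Of the Rab GTPases that LRRK2 or LRRK1 phosphorylates, 14 of 15 were tested. Of these, 1 was higher and 1 lower in PAX6_Ta KO, and 2 were higher and 0 lower in PBX3_Cl KO (edgeR). Over all tested genes, 7.21% were higher and 4.21% lower in PAX6_Ta KO, and 6.28% and 2.69% in PBX3_Cl KO. The textbook substrates had counts in every library and were not called. RAB10 had 283 ± 53.6 CPM in PAX6_Ta KO, 396 ± 77.4 CPM in PBX3_Cl KO and 381 ± 44.5 CPM in Control, and RAB8A had 31.4 ± 2.92, 35.9 ± 1.27 and 36.8 ± 3.43 CPM in the same order. RAB7A, the substrate of LRRK1, had 84.6 ± 13.3, 95.6 ± 0.718 and 93.8 ± 15.9 CPM.

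RAB29, a Golgi Rab that is a substrate of LRRK2 and can also recruit it to membranes, had 304 and 295 counts in PAX6_Ta KO, 1232 and 995 in PBX3_Cl KO, and 1101 and 1035 in Control. It fell by 1.70 on the log2 scale in PAX6_Ta KO (SE 0.23, adjusted p = 3.2e-04 by edgeR) and was not called in PBX3_Cl KO (log2 fold change 0.36, adjusted p = 0.438). The PAX6_Ta KO libraries were thus low in RAB29 and high in LRRK1, while LRRK2 was at 2 counts or fewer there and at 0 in Control. RAB3D, a Rab of secretory granules, rose by 1.90 (SE 0.37, adjusted p = 0.00579 by edgeR) in PBX3_Cl KO. In PAX6_Ta KO it rose by 1.25 (adjusted p = 0.0455), a call lost when Control replicate 2 was left out (0.31) or PAX6_Ta KO replicate 1 (0.129). RAB3B, another secretory Rab, rose by 2.34 in PBX3_Cl KO (SE 0.49, adjusted p = 0.0088), or 0.0561 without PBX3_Cl KO replicate 1.

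Among 10 effectors and phosphatases of phosphorylated Rabs, 1 was called in each knockout and it was MYO5A, a myosin motor that binds phosphorylated RAB10. This stands beside 7.21% of all tested genes called higher in PAX6_Ta KO and 6.28% in PBX3_Cl KO. MYO5A had 470 and 420 counts in PAX6_Ta KO, 217 and 192 in PBX3_Cl KO, and 115 and 96 in Control. It rose by 2.22 (SE 0.29, adjusted p = 3.2e-04 by edgeR) in PAX6_Ta KO and by 1.25 (SE 0.29, adjusted p = 0.0159) in PBX3_Cl KO, the second call being lost without Control replicate 1 or 2 at adjusted p of 0.0712 and 0.075. PPM1H, the phosphatase that removes the phosphate LRRK2 puts on Rabs, was not called in PAX6_Ta KO (log2 fold change -0.44, adjusted p = 0.402) or PBX3_Cl KO (0.42, adjusted p = 0.473). With the replicate block, 3 of the 10 were higher in each knockout, and with 1 library left out 1 or 2 were higher in PAX6_Ta KO and 0 to 2 in PBX3_Cl KO, the 0 being without Control replicate 2.

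**Figure D2:**
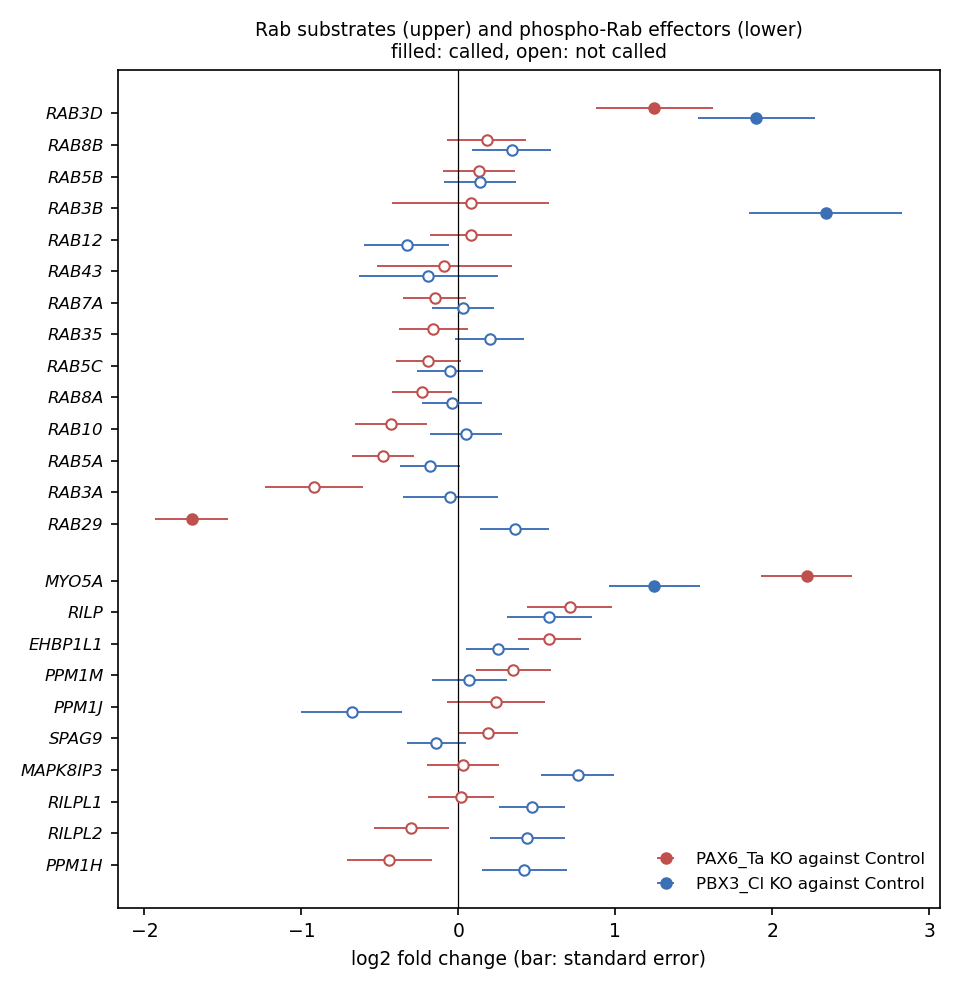
Log2 fold change over Control, with its standard error, of the 14 tested Rab substrates (upper) and 10 effectors and phosphatases of phosphorylated Rabs (lower). Red is PAX6_Ta KO, blue is PBX3_Cl KO, and filled points are called. RAB29 fell in PAX6_Ta KO (-1.70), RAB3B rose in PBX3_Cl KO, and RAB3D and MYO5A rose in both knockouts, with the calls lost on leaving out a library as given in the text.

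The counts of partners stand beside 7.21% higher and 4.21% lower of all tested genes in PAX6_Ta KO, and 6.28% and 2.69% in PBX3_Cl KO. The 36 partners and regulators of LRRK2 were all tested. In PAX6_Ta KO, 1 was higher and 2 lower, and in PBX3_Cl KO 0 were higher and 2 lower (3 and 6, and 2 and 2, with the replicate block). Without PBX3_Cl KO replicate 1 or 2, 5 or 6 were lower in PAX6_Ta KO, and over all 6 libraries left out in turn 0 to 3 were lower in PBX3_Cl KO. RAB32, a Rab of lysosome-related organelles that binds LRRK2, had 1472 and 1353 counts in PAX6_Ta KO, 632 and 420 in PBX3_Cl KO, and 500 and 293 in Control. It rose by 1.99 in PAX6_Ta KO (SE 0.28, adjusted p = 4.6e-04 by edgeR), and in PBX3_Cl KO its log2 fold change was 0.73 (adjusted p = 0.135, or 0.0294 with the replicate block and 0.0362 without PBX3_Cl KO replicate 2). SFN, a 14-3-3 protein, fell by 1.68 on the log2 scale in PAX6_Ta KO (adjusted p = 0.00718, or 0.0671 without PAX6_Ta KO replicate 2). VPS26A, a subunit of retromer, and RGS2, a regulator of G-protein signalling, were called lower in PBX3_Cl KO, with log2 fold changes of -0.80 and -1.92, and both calls were lost without Control replicate 2 or PBX3_Cl KO replicate 2 (adjusted p from 0.0668 to 0.166 for VPS26A, which was also lost without Control replicate 1, and 0.0516 and 0.0629 for RGS2). Of 7 tested partners of LRRK1, 1 was higher and 0 lower in PAX6_Ta KO, and 0 were called in PBX3_Cl KO, or 1 higher with the replicate block. The one called was TBC1D2, a GTPase-activating protein for RAB7A, with a log2 fold change of 0.89 in PAX6_Ta KO (adjusted p = 0.0119 by edgeR, or 0.125 when Control replicate 2 was left out and 0.157 when PAX6_Ta KO replicate 1 was). In PBX3_Cl KO its log2 fold change was 0.70 (adjusted p = 0.0506, or 0.0276 with the block).

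From the list of genes linked to inherited Parkinson disease, ATP13A2, a lysosomal polyamine transporter, and HTRA2, a mitochondrial protease, were lower in PAX6_Ta KO than in Control by edgeR, with log2 fold changes of -0.87 (adjusted p = 0.0111) and -0.66 (adjusted p = 0.0484). The call on ATP13A2 was lost without Control replicate 2 (adjusted p = 0.0878) or PAX6_Ta KO replicate 2 (0.181). That on HTRA2 was lost without any one of both Control and both PAX6_Ta KO replicates, at adjusted p from 0.173 to 0.416. In PBX3_Cl KO neither was called, at adjusted p of 0.819 for ATP13A2 and 0.937 for HTRA2. RAB32, above, is also on this list.

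**Figure D3:**
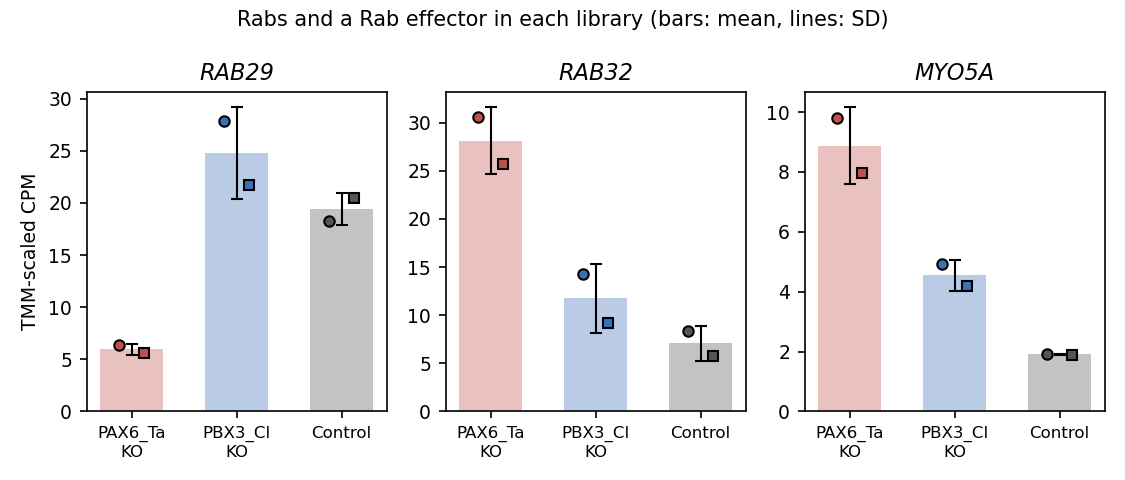
RAB29, RAB32 and MYO5A in each library, in TMM-scaled CPM. Bars are means of 2 libraries, lines their SD and points the libraries. RAB29 is lowest and RAB32 and MYO5A are highest in PAX6_Ta KO.

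Lists of 4 processes in which LRRK2 acts or is regulated were counted, beside 7.21% higher and 4.21% lower of all tested genes in PAX6_Ta KO, and 6.28% and 2.69% in PBX3_Cl KO. In PAX6_Ta KO, 1 of 31 lysosomal genes was higher and 2 were lower, and 3 were higher and 0 lower in PBX3_Cl KO (3 and 2, and 5 and 0, with the replicate block). CTSD, the protease cathepsin D, rose by 1.45 in PBX3_Cl KO (SE 0.23, adjusted p = 0.00153 by edgeR) and by 1.05 in PAX6_Ta KO (adjusted p = 0.01, or 0.058 without PAX6_Ta KO replicate 1), and TMEM192, a lysosomal membrane protein, fell by 1.07 on the log2 scale in PAX6_Ta KO (adjusted p = 0.00456). Of 29 autophagy genes, 3 were higher in PAX6_Ta KO and 2 in PBX3_Cl KO (6 and 5 with the block), with 0 lower in both. With 1 library left out, 0 to 5 were higher in PAX6_Ta KO, the 0 being reached on leaving out Control replicate 2 or else PAX6_Ta KO replicate 1, and 1 or 2 in PBX3_Cl KO, the 1 on leaving out any Control or PAX6_Ta KO library. OPTN, a receptor for cargo of autophagy, rose by 1.53 in PBX3_Cl KO (SE 0.27, adjusted p = 0.00264 by edgeR). Of 14 genes of primary cilium formation, which LRRK2 activity is known to limit, 3 were higher and 0 lower in each knockout, among them RAB3IP, the exchange factor for RAB8A, by 1.20 in PAX6_Ta KO (SE 0.22, adjusted p = 0.00296) and 1.88 in PBX3_Cl KO (SE 0.22, adjusted p = 1.5e-04). Of 13 tested genes of interferon-gamma signalling, a pathway known to raise LRRK2 in monocytes, 1 was higher in PAX6_Ta KO (2 with the block) and 0 were called in PBX3_Cl KO. Without Control replicate 2, 1 cilium gene was higher in PBX3_Cl KO, and without PBX3_Cl KO replicate 1, 2 of the interferon-gamma genes were. The one called with all libraries was GBP2, which had 325 and 227 counts in PAX6_Ta KO, 47 and 29 in PBX3_Cl KO, and 61 and 12 in Control, and rose by 3.12 in PAX6_Ta KO (SE 0.56, adjusted p = 0.00275).

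Markers of the cell types best known for LRRK2 were mixed. Their calls stand beside 7.21% higher and 4.21% lower of all tested genes in PAX6_Ta KO, and 6.28% and 2.69% in PBX3_Cl KO. The 21 monocyte and macrophage markers summed to 67.8 to 101 CPM in PAX6_Ta KO, 56.7 to 118 CPM in PBX3_Cl KO and 82.8 to 94.5 CPM in Control, with MPEG1 and FCN1 at 0 counts in all 6 libraries. Others had counts in all lines, such as FCGR2A with means of 49.5 CPM in PAX6_Ta KO, 59.4 CPM in PBX3_Cl KO and 52.9 CPM in Control, SPI1 with 13.8, 17.7 and 20.1 CPM, and LYZ with 8.34, 4.99 and 5.39 CPM in the same order. CD163 was at 0 in every PAX6_Ta KO and Control library and had 1 and 0 counts in PBX3_Cl KO. Of 12 tested, 1 was higher and 0 lower in PAX6_Ta KO (3 and 1 with the replicate block), and 0 were higher and 1 lower in PBX3_Cl KO. With 1 library left out, 0 to 3 were higher in PAX6_Ta KO, with the 3 on leaving out Control replicate 1 and the 0 on leaving out either PAX6_Ta KO library, and 0 to 2 were lower in PBX3_Cl KO. The 16 B and T lymphocyte markers summed to 12.3 to 17.2, 6.35 to 9.64 and 8.46 to 10.7 CPM in the same order, with MS4A1 (CD20) and VPREB1 at 0 throughout, and of 6 tested 2 were higher in PAX6_Ta KO and 0 were called in PBX3_Cl KO. The 10 kidney and lung epithelium markers summed to 18.3 to 18.5, 18.0 to 23.4 and 8.85 to 11.6 CPM, with SFTPA1, UMOD and SLC12A1 at 0, and 1 of 3 tested, AQP1, was called higher in each knockout. AQP1 is also a protein of red cells. The part of these markers in the values of LRRK2 and LRRK1 was not tested.

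K562 is described above as an erythroleukaemia line. The 22 erythroid markers summed to 11800 to 13600 CPM in PAX6_Ta KO, 12400 to 12600 CPM in PBX3_Cl KO and 8250 to 9710 CPM in Control. All tested genes gave 7.21% higher and 4.21% lower in PAX6_Ta KO, and 6.28% and 2.69% in PBX3_Cl KO. Of the erythroid markers, 6 were higher and 2 lower in PAX6_Ta KO. In PBX3_Cl KO, 3 were higher and 0 lower (6 higher with the replicate block). Without Control replicate 2, 2 were higher and 3 lower in PAX6_Ta KO, and on leaving out PAX6_Ta KO replicate 1 or 2 these counts were 3 and 1 or 4 and 0. The 14 megakaryocyte markers summed to 78.3 to 115 CPM in PAX6_Ta KO, 108 to 122 CPM in PBX3_Cl KO and 80.1 to 199 CPM in Control, with GP1BB at 0 in all. Of the 9 tested, 0 were higher and 4 lower in PAX6_Ta KO, and 1 was higher and 6 lower in PBX3_Cl KO. Control replicate 1 held far more of several of these than Control replicate 2, with 3232 against 826 counts of ITGA2B, 408 against 58 of FLI1 and 261 against 12 of SELP. Without it, 1 was higher and 3 lower in PAX6_Ta KO, and 2 were higher and 3 lower in PBX3_Cl KO. Neuron and glia markers summed to 11.7 to 12.3, 7.1 to 8.47 and 21.8 to 26.6 CPM in the same order, with STMN2, AQP4 and TH at 0, and gave 1 higher and 1 lower of 6 in PAX6_Ta KO, and 0 and 2 in PBX3_Cl KO. Fibroblast and epithelial markers summed to 1330 to 2050, 672 to 1130 and 862 to 1010 CPM, with LUM, FAP, KRT5 and KRT14 at 0, and gave 4 higher and 2 lower of 12 in PAX6_Ta KO, and 2 and 1 in PBX3_Cl KO (3 and 2 with the block). The part of these shifts in the values of LRRK2 and LRRK1 was not tested.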

How the data were processed

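The counts are as the authors deposited them, whole reads per gene with no normalization, after trimming (Cutadapt, version 3.4) and alignment by STAR against release 75 of the GRCh37 annotation. RNA came from an ISOLATE II kit and libraries from a Collibri Stranded kit. Of the count table, 4 columns of single samples match no label and were not used. The authors' deposited comparison tables hold log2 fold changes and p-values and were not used. Genes were placed with GENCODE release 44 lifted to GRCh37. Sequences came from RefSeq and the study's guide table.

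The tests ran in edgeR (version 4.0.16, under R version 4.3.3): filterByExpr on the 3 groups, TMM scaling and 1 quasi-likelihood fit of all 6 libraries, with Benjamini-Hochberg adjustment over 20746 genes and calls below 0.05. SE is that of the fitted log2 fold change. On simulated counts the fit was checked to recover known changes. Intervals and floors cover counting error only. Replicates differed by more than sampling noise. Across genes, the log2 difference of replicate 1 from 2 had a correlation of 0.389 between PAX6_Ta KO and Control. It was 0.21 for PBX3_Cl KO and Control, and 0.379 for PAX6_Ta KO and PBX3_Cl KO. The shared replicate numbers of the labels were therefore taken to pair the libraries, although the labels do not say what they mark. The main fit did not use this pairing, so the SE and adjusted p printed without mention of the block ignore it. Alternatives were RLE, upper-quartile and no scaling, DESeq2 (version 1.42.0), other filters, 2-group fits, the replicate block, each library left out and the arm median taken out.

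LRRK2, LRRK1 and the gene lists were chosen with earlier results of these data known. Named genes are the 2 members, the called genes of each list with the largest changes (at most 3 a direction), textbook members of the pathway, the nearest tested neighbours, and the 5 most like each member. Some further neighbours were named after their values were seen. Some genes that this rule names, and the counts over the Parkinson disease list, are not reported here. The planned comparison of the 2 proteins was not run.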

Additional observations from a re-analysis of the deposited data

Results flagged for a closer look

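Both tested genes next to LRRK2 were called in opposite directions in the 2 knockouts, and also between them. SLC2A13, next to LRRK2, had a log2 difference of -2.92 between PAX6_Ta KO and PBX3_Cl KO, lower in PAX6_Ta KO (adjusted p = 2.2e-05 by edgeR). MUC19, on the other side of LRRK2, was 305-fold lower in PAX6_Ta KO than in PBX3_Cl KO (exact 95% interval 104 to 1480). MUC19 entered the tests only with the PBX3_Cl KO libraries, where it was high, so its rise and this ratio are a description. Both knockouts were set against the same 2 Control libraries.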

How the results depend on the processing

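LRRK1 in PAX6_Ta KO against Control had log2 fold changes of 6.0 to 6.09 under the 9 alternatives that keep every library and 5.77 to 6.33 with 1 library left out, and was called in each. LRRK1 in PBX3_Cl KO against Control stayed at 1.14 to 1.25 and 0.95 to 1.53, and between the knockouts at 4.80 to 4.92 and 4.58 to 5.10. LRRK2 in PAX6_Ta KO against Control had adjusted p of 0.287 to 0.487, and 0.211 to 1 with 1 library left out. With only those 2 groups in the fit it failed the filter and has no value. Its lower bound over Control in PBX3_Cl KO was 224 to 240 under other scalings and 110 to 280 with 1 library left out, and PBX3_Cl KO stood 304-fold to 322-fold above PAX6_Ta KO. With 1 library left out this ratio reached 383-fold, and without PAX6_Ta KO replicate 1 it is a lower bound of 114. Bounds and ratios of counts have no value under the other alternatives.

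The number of genes called moved more. With the replicate block, which takes the pairing of replicate numbers into account, it rose in each comparison. It was 3548 in PAX6_Ta KO against Control (2370 without it) and 2798 in PBX3_Cl KO against Control (1860 without it). Between the knockouts it was 3877 (2483 without it). In PAX6_Ta KO against Control, where the members were tested, the block changed neither call (LRRK1 log2 fold change 6.04, LRRK2 adjusted p = 0.287), and it changed no printed call on another gene beyond those given with it. With 1 library left out the number of genes called ranged from 1375 to 3368 in PAX6_Ta KO against Control (2370 with all), 1371 to 1930 in PBX3_Cl KO against Control and 1431 to 2818 between the knockouts. The single library of such an arm is assumed to vary like the other groups. With 1 library left out, 2 to 4 genes around LRRK1 were called in PBX3_Cl KO, 3 to 6 between the knockouts, and 3 to 6 around LRRK2 between the knockouts. Around LRRK1, 2 and 7 genes were called in PAX6_Ta KO within 1 Mb and 5 Mb, 0 in PBX3_Cl KO within 1 Mb and 3 between the knockouts within 1 Mb. The 2 libraries per group and counts near 0 limit what can be said of LRRK2 outside PBX3_Cl KO. The calls on RAB3D and HTRA2 in PAX6_Ta KO, VPS26A in PBX3_Cl KO and KIF21A between the knockouts were also lost under some other settings of scaling, filter, tool or groups in the fit. The protein comparison was not run. The block and left-out libraries on lists and windows, and all alternatives for other named genes, were added after seeing the data.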
